A study of Mus musculus with 3 samples.

Results

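RNA-rich LT-HSCs were the cells with the most RNA per unit of chromatin signal, and RNA-poor LT-HSCs those with the least. Both groups were chosen by the number of RNA UMIs (unique molecular identifiers, each marking 1 captured transcript) divided by the number of ATAC fragments of the same cell. Of 3629 cells with at least 10 antibody tags, ranked by this ratio and cut into 4 groups of equal size, the top group held 907 RNA-rich cells and the bottom group 907 RNA-poor cells. All cells were wild-type long-term haematopoietic stem cells (LT-HSCs) of female C57BL/6 mice (C57BL/6J in the study's methods) aged 24 months, sorted from c-Kit-enriched bone marrow for the CD150+ CD48- CD34- part of lineage-negative, Sca-1+ and c-Kit+ cells. They were profiled by DOGMA-seq, which reads open chromatin (ATAC), RNA and oligonucleotide-tagged antibodies from the same permeabilised cells. The 3 libraries, 1 for each kind of data, came from 1 pool of cells, so no comparison has a replicate and no test was made. Intervals are exact 95% intervals that cover counting error only. RNA counts per gene were not analysed here, so RNA enters only as totals per cell.

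Most LT-HSCs rest in G0 and are known for low transcription, a small cytoplasm and slow protein synthesis. Activation is known to raise RNA content and the making of ribosomes before the first division, and cells that copy their DNA carry more chromatin to be cut. A ratio of RNA to chromatin fragments therefore does not by itself name a quiescent or an activated state, and the groups are called here by the rule that made them.

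The median ratio was 0.140 UMIs per fragment in RNA-poor cells, 0.177 and 0.213 in the lower and upper middle groups and 0.286 in RNA-rich cells. At the upper cut the last cell inside had 0.238568 and the first outside 0.238469, and at the lower cut these were 0.160628 and 0.160641. The median RNA content was 1613 UMIs in RNA-poor and 2378 UMIs in RNA-rich cells, and the median chromatin depth 11746 and 7774 fragments. RNA-rich cells thus had more RNA and fewer fragments, both of which the rule used. Across the 3629 cells Spearman's rho of UMIs and fragments was 0.381, a description. Because the groups differed in chromatin depth, the cells were also split into 20 bins by fragments and ranked by the ratio within each bin. These matched groups held 909 cells each, with medians of 10298 fragments in RNA-rich and 10300 fragments in RNA-poor cells, and of 2643 and 1472 UMIs. Of the 907 RNA-rich cells, 590 (65.0%) were also RNA-rich in their bin and 21 were RNA-poor in it. Of the 907 RNA-poor cells, 671 (74.0%) were also RNA-poor in their bin and 0 were RNA-rich.

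**Figure D1:**
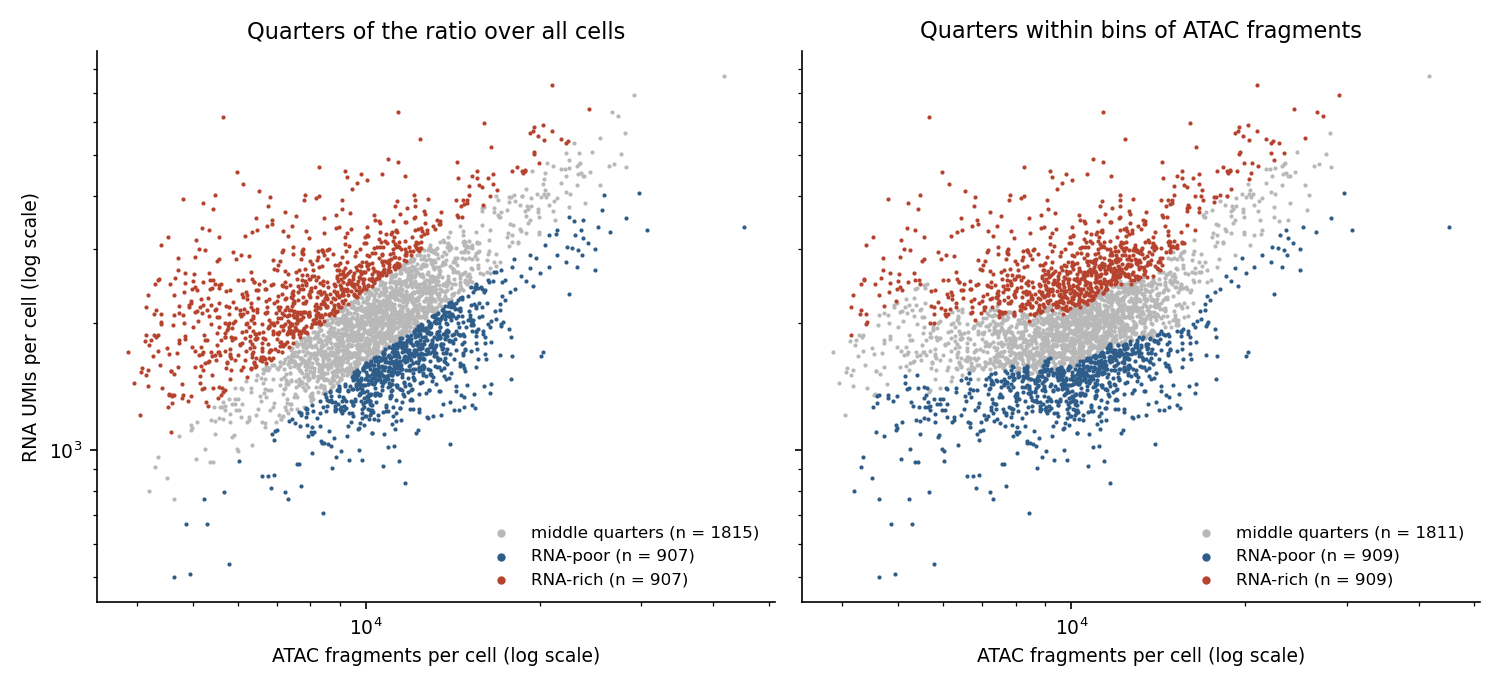
ATAC fragments (x axis) against RNA UMIs (y axis) of each of the 3629 cells, both on log scales, with RNA-rich, RNA-poor and middle cells in different colours. The groups of the ratio (left) lie along a diagonal, with medians of 7774 fragments in RNA-rich and 11746 in RNA-poor cells, whereas the groups taken within 20 bins (right) cover the same range of fragments.

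RNA-rich cells had a lower exonic share of RNA, a share of the UMIs whose number the rule used. Exonic UMIs made up 65.3% of exonic and intronic UMIs in RNA-poor cells, 63.8% and 63.1% in the middle groups and 62.1% in RNA-rich cells. The order was the same when matched, at 64.7%, 63.7%, 63.1% and 62.9%. Reads mapped between genes went up, at 9.49% of confidently mapped RNA reads in RNA-poor and 11.3% in RNA-rich cells, and 9.38% and 11.2% when matched. The medians over cells of this share lay closer together, at 9.69% and 10.78%, and 9.59% and 10.78% when matched. The intronic share of confidently mapped RNA reads was 39.3% in RNA-poor and 40.3% in RNA-rich cells, but the order was turned when matched, at 40.03% and 39.7%. Unspliced RNA is found mainly in the nucleus, and permeabilised cells give both nuclear and cytoplasmic transcripts. Mitochondrial DNA, which the transposase also cuts, gave 0.730% of ATAC reads in RNA-poor and 0.448% in RNA-rich cells, and 0.702% and 0.477% when matched. The medians over cells lay closer together, at 0.237% and 0.206%.

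The place of the fragments moved in opposite directions with and without matching. Fragments at transcription start sites made up 45.6% of fragments in RNA-poor cells, 46.4% and 46.7% in the middle groups and 47.2% in RNA-rich cells. When matched the order was turned, at 46.7% in RNA-poor, 46.5% and 46.4% in the middle and 45.9% in RNA-rich cells. The share in peak regions was 66.1% in RNA-poor and 67.5% in RNA-rich cells, but 67.3% and 65.9% when matched. Fragments shorter than the DNA of a nucleosome were 32.3% and 33.2%, and 32.9% and 32.3% when matched. The direction of all 3 measures depended on whether chromatin depth was matched.

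**Figure D2:**
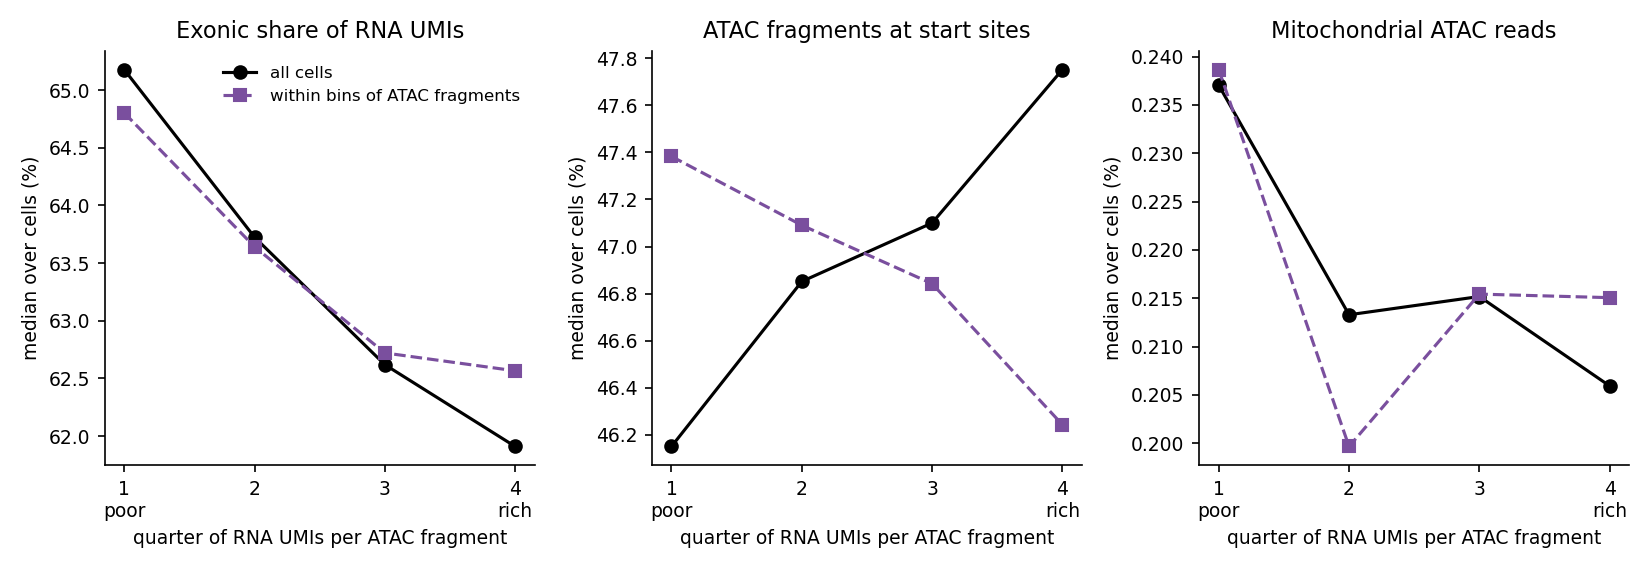
Median over cells (y axis, %) in each of the 4 groups of RNA UMIs per ATAC fragment (x axis, from RNA-poor to RNA-rich), over all cells and within 20 bins of fragments; the y axes do not start at 0. The exonic share is highest in RNA-poor cells on both lines (65.2% and 64.8%), whereas in RNA-rich cells the share at start sites reaches 47.8% over all cells and 46.2% when matched.

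Cells with 3 or more overlapping fragments at many autosomal places can be doublets, cells with copied DNA or cells with more fragments. Each cell was set against the mean over all cells, so the excess also follows chromatin depth, which the rule used. The median number of such places was 46 in RNA-poor and 26 in RNA-rich cells, and 40 and 36 when matched. Such an excess was found in 102 of 907 RNA-poor cells (11.2%, interval 9.26% to 13.5%) and in 38 of 907 RNA-rich cells (4.19%, interval 2.98% to 5.71%). When matched on fragments, the shares were 8.14% in RNA-poor and 8.47% in RNA-rich cells. Without these cells, 276 genes were higher and 325 lower in RNA-rich cells by at least the fold used below for genes, against 250 and 343 with them.

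Antibody tags give a readout that the rule used only through the minimum of 10 tags. Over the 12 antibodies the mean was 31.3 tags in RNA-poor and 31.6 tags in RNA-rich cells (ratio 1.01, interval 0.991 to 1.02), and the median was 29 tags in both. Each antibody is recognised by an oligonucleotide barcode. Those of CD274, which took most tags, and of CD61, which differed most among the abundant antibodies, were as follows, 5′ to 3′.
CD274: tcgattccaccaact
CD61: ttctttacccgcctg
CD274, the checkpoint ligand PD-L1, had a mean of 21.5 tags in RNA-poor cells, 21.3 and 21.2 in the middle groups and 21.04 in RNA-rich cells (ratio 0.978, interval 0.959 to 0.998), and a matched ratio of 0.986 (interval 0.966 to 1.01).

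CD61, the integrin beta 3 chain of platelets and megakaryocytes, was higher in RNA-rich cells. Its mean was 3.56 tags in RNA-poor cells, 3.70 and 3.88 in the middle groups and 3.91 in RNA-rich cells (ratio 1.10, interval 1.05 to 1.15). When matched on fragments, the means were 3.40, 3.86, 3.88 and 3.91 tags (ratio 1.15, interval 1.10 to 1.21), so that the RNA-poor group stood below the other three. Matched on RNA UMIs in place of fragments, the log2 ratio of CD61 was -0.011. With UMIs held alike, the ratio ranks cells by their fragments, so this setting sets cells of low chromatin depth against cells of high depth. With fragments held alike, the ratio ranks cells by their UMIs, with medians of 1472 UMIs in RNA-poor and 2643 UMIs in RNA-rich cells. The share of cells with any CD61 tag did not follow the means, at 94.05% in RNA-poor and 92.8% in RNA-rich cells. Among cells with at most 9 CD61 tags the means were 3.26 and 3.62.

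Other antibodies gave wider intervals. MERTK, a receptor for the uptake of dying cells, had 0.699 and 0.778 tags per RNA-poor and RNA-rich cell (ratio 1.11, interval 0.999 to 1.24, and 1.12, interval 1.002 to 1.24, when matched), with tags on 37.5% and 44.2% of cells. CD106, the adhesion molecule VCAM-1, had 0.334 and 0.383 tags (ratio 1.15, interval 0.979 to 1.34). CD357, the TNF receptor GITR, had 3.10 and 3.30 tags (ratio 1.06, interval 1.01 to 1.12, and 1.05, interval 0.994 to 1.10, when matched), but its highest mean was in the lower middle group (3.43). CD201, the protein C receptor that marks stem cells, lay on the other side, with 0.437 and 0.410 tags (ratio 0.939, interval 0.813 to 1.08), and when matched its ratio was 0.853 (interval 0.735 to 0.989). The intervals for CD27, P2X7R, CD68, CD163, CD206 and CD183 reached to both sides of 1 in both comparisons, and CD68, CD163, CD206 and CD183 had at most 0.121 tags per cell in any group.

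Tags that matched none of the antibodies differed more than any abundant antibody. They averaged 3.84 per RNA-poor cell, 4.22 and 4.54 in the middle groups and 4.79 per RNA-rich cell (ratio 1.247, interval 1.19 to 1.30). When matched on fragments, they averaged 3.60, 4.12, 4.57 and 5.09 (ratio 1.41, interval 1.35 to 1.48). Matched on RNA UMIs, their log2 ratio was -0.032, near 0 as for CD61. Their part in the difference in CD61 was not tested.

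**Figure D3:**
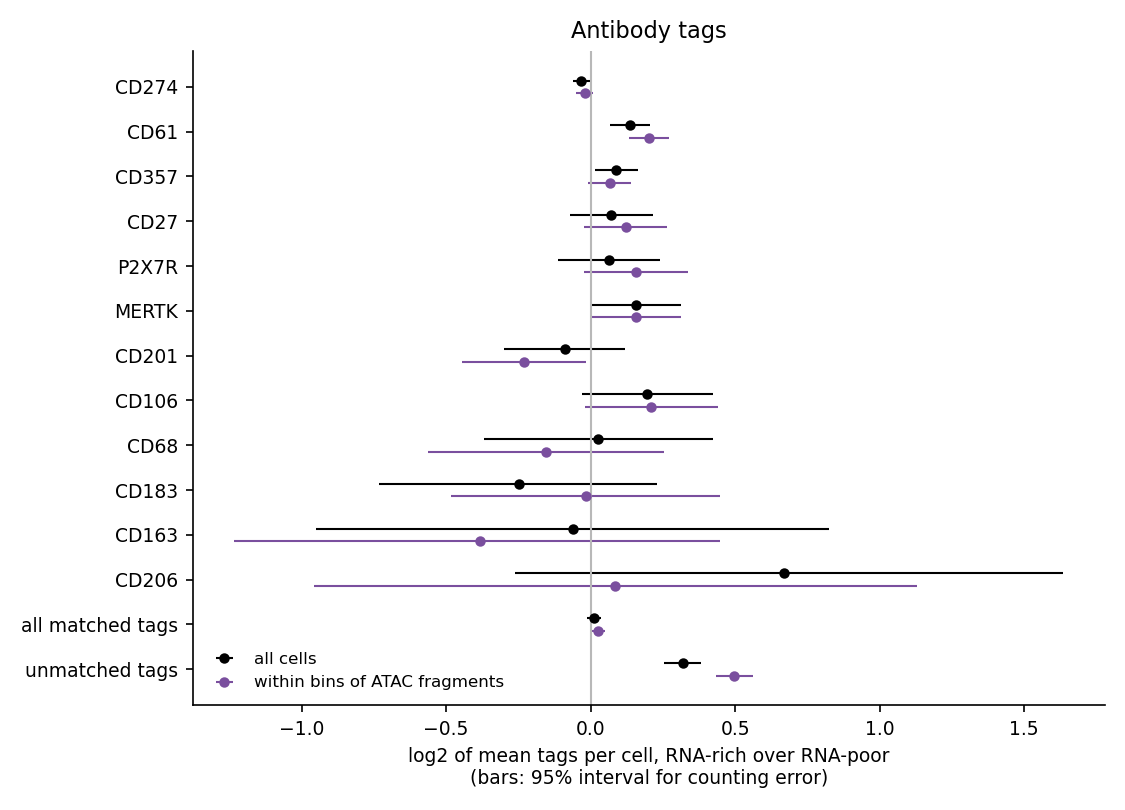
Log2 of the mean tags per RNA-rich cell over the mean per RNA-poor cell (x axis) for the antibodies, their total and the unmatched tags (y axis), over all cells and matched on fragments, with bars for the 95% interval of counting error. CD61 (0.14 and 0.20) and the unmatched tags (0.32 and 0.50) lie to the right of 0 in both comparisons, and the total lies at 0.01 and 0.03.

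The gates built from the 4 markers that part platelet-biased (PLT) from multilineage (MUL) HSCs held shares of both groups whose intervals overlapped. Cells high for CD61 and CD274 and low for CD357 and CD27, each split at its median, form the PLT gate. It held 88 RNA-poor cells (9.70%, interval 7.85% to 11.8%) and 100 RNA-rich cells (11.03%, interval 9.06% to 13.2%). When matched, the shares were 9.24% and 9.13%. The opposite MUL gate held 15 RNA-poor cells (1.65%) and 13 RNA-rich cells (1.43%). Both gates were cut at medians of these cells, not as in the study's flow cytometry, and their shares are not comparable with its shares.

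Chromatin was compared by the sums of fragments over each gene with 2 kb upstream, over promoters (1 kb on each side of the start) and over distal windows of 1 kb more than 2 kb from any start. Levels are fragments per 1000000 nuclear fragments of the group (FPM), and ratios are log2 of RNA-rich over RNA-poor levels. RNA-rich cells held 7560262 and RNA-poor cells 11143579 nuclear fragments, and the matched groups 9604625 and 9676224. Over 17860 genes with at least 200 fragments the ratios had a median of 0.02 and an SD of 0.144, where counting error alone gives an SD of 0.120. For 12087 promoters these SDs were 0.153 and 0.134, and for 3039 distal windows 0.200 and 0.174. Most of the spread was thus of the size of counting error.

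A feature was counted as higher or lower in RNA-rich cells past a set fold (0.32 on the log2 scale). Of the genes, 250 (1.40%) were higher and 343 (1.92%) lower, and when matched 417 (2.32%) and 267 (1.49%). Scaled by promoter fragments in place of nuclear fragments, 108 were higher and 635 lower, since this moves all ratios by -0.06. Of the promoters, 2.98% were higher and 1.54% lower over all cells, but 1.52% and 2.56% when matched, the same turn as in the share at start sites. Matched on RNA UMIs, 1559 of 12227 promoters were higher and 161 lower, in a contrast of low against high chromatin depth. Of the distal windows, 6.12% were higher and 5.0% lower, and 3.57% and 9.75% when matched. Among 6229 genes with at least 1000 fragments, 8 were higher (Dgcr8, Arl4aos, Mdh2, Arhgap5, Elp5, Gm17058, Rab11a and Gm35188) and 1 lower (Dclk1), all named after their values were seen. When matched on fragments, Dgcr8 (0.34) stayed past the fold, while the others higher lay between 0.15 (Elp5) and 0.31 (Arhgap5) and Dclk1 at -0.14. Arhgap5 and Gm35188 share a region. Arl4aos shares its region with Arl4a, Elp5 with Ctdnep1, Gm17058 with Cers5 and Lima1, and Dclk1 with Gm21954 and Gm42609. In lists as short as those below, these shares amount to few genes or none, so that 0 members past the fold is near the background.

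Among genes of DNA replication few passed the fold, but most ratios lay above 0. Of the 42 genes of the S phase list, 40 had at least 200 fragments and 36 of these lay above 0 (28 when matched), as did 55.8% of all genes (47.6% when matched). Past the fold, 2 were higher and 0 lower, against 1.40% and 1.92% of all genes, and the median ratio was 0.14 against 0.02 over all genes. The list together had 1865 FPM in RNA-poor cells, 1944 and 1999 FPM in the middle groups and 2062 FPM in RNA-rich cells (log2 ratio 0.15, interval 0.12 to 0.18). When matched, these were 1927, 1917, 1977 and 2010 FPM (log2 ratio 0.06, interval 0.03 to 0.09), with a median of 0.06 against -0.01 over all genes. At promoters the list's median was 0.17 over all cells and 0.07 when matched, against 0.07 and -0.03 over all promoters. Among genes the list stood closer to all genes when chromatin depth was matched, whereas the medians of its promoters and of all promoters fell together.

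Mcm6, a subunit of the helicase that opens replication origins, differed most in the list. Over the gene with 2 kb upstream (chr1:128331590-128361664, mm10) it had 33.8 FPM in RNA-poor cells, 43.2 and 45.3 FPM in the middle groups and 46.96 FPM in RNA-rich cells. The log2 ratio was 0.47 (interval 0.26 to 0.69, from 377 RNA-poor and 355 RNA-rich fragments) and 0.50 (interval 0.29 to 0.71) when matched, with the RNA-poor group below the other three. Its promoter had 25.3, 34.1, 33.2 and 37.04 FPM from RNA-poor to RNA-rich (log2 ratio 0.55, interval 0.31 to 0.79). Matched on RNA UMIs, the gene's log2 ratio was 0.13 (interval -0.09 to 0.34), and with at least 50 tags per cell it was -0.038. Dscc1, which helps to load the replication clamp, had 12.7, 13.9, 11.5 and 16.7 FPM (log2 ratio 0.40, interval 0.04 to 0.75, and 0.47 when matched), with only the RNA-rich group apart, but -0.061 when matched on RNA UMIs. Mcm5, another helicase subunit, had 40.7, 41.9, 48.01 and 50.7 FPM (log2 ratio 0.31, interval 0.11 to 0.51), and 0.17 (interval -0.03 to 0.36) when matched. The lowest of the list were Rfc2 at -0.08 (interval -0.29 to 0.14) and Clspn at -0.07 (interval -0.35 to 0.19).

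The promoters of both helicase genes hold letters that the E2F factors of the G1 to S switch are known to bind. The 250 bases before the start are printed from RefSeq (GRCm38.p6), 5′ to 3′ on the strand of the gene, with TTCCCGC in capitals on either strand, likewise TTCGCGC as a close form and likewise TTGGCGC, where overlapping matches run together. Mcm6 lies on the minus strand at chr1:128359706-128359955 and Mcm5 on the plus strand at chr8:75109259-75109508.
Mcm6: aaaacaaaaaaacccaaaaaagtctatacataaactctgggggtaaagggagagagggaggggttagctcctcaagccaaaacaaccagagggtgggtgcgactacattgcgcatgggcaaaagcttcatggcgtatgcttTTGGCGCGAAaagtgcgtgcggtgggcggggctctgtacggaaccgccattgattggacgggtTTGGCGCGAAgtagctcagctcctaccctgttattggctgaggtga
Mcm5: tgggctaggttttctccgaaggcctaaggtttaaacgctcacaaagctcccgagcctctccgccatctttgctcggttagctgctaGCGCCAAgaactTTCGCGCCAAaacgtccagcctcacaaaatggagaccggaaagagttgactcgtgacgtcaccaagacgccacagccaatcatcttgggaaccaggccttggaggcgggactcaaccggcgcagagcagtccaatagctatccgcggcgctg
Mcm6 held 4 matches and Mcm5 held 3, whereas the same stretches of Mcm10, Ccne1 and Cks1b held 0. Over 300 bases around the start (250 before and 50 after), 19 of 30 genes of the S phase list found in the RefSeq table held a match (63.3%), against 16.4% of promoters with at least 200 fragments and 9.86% of all 20129 promoters found. The share was 16.04% among promoters higher in RNA-rich cells past the fold (43 of 268) and 15.7% among those lower (21 of 134), close to the share among promoters with at least 200 fragments. A match describes the letters and no binding.

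The 15 genes that drive entry into the cell cycle were all above 0 over all cells, against 55.8% of all genes, and 11 of them when matched, against 47.6%, with median ratios of 0.11 over all cells and 0.08 when matched, and 0 were past the fold (1.40% of all genes were higher and 1.92% lower). At promoters, 13 of 13 lay above 0 over all cells, against 67.5% of all promoters, but 6 when matched, against 40.0%, with a matched median of -0.02 against -0.03 over all promoters. Ccne2 and Ccne1, the cyclins E that start S phase, had log2 ratios of 0.27 (interval 0.06 to 0.47) and 0.24 (interval 0.07 to 0.41). Cdk4 and Ccnd1, a kinase and a cyclin D of early G1, had 0.03 and 0.01. Of 51 genes of G2 and mitosis, 1 was higher past the fold and 0 lower, near the 1.40% and 1.92% of all genes. This was Cks1b, a cofactor of cyclin-dependent kinases, with 43.9, 49.7, 50.3 and 56.3 FPM (log2 ratio 0.36, interval 0.17 to 0.55, and 0.23 when matched). Top2a, which untangles DNA before division, had 0.27 and, when matched, -0.03. The centromere histone Cenpa and the mitotic kinase Aurkb were lowest at -0.19 and -0.15. The median of the list was 0.10 over all cells and -0.01 when matched.

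Among genes known for stem cell dormancy, most ratios lay above 0 over all cells but not when matched. Of 19, 18 had at least 200 fragments and 0 passed the fold in either direction (1.40% of all genes were higher and 1.92% lower), with median ratios of 0.05 over all cells and -0.01 when matched. Above 0 were 14 of the 18 over all cells and 8 when matched, against 55.8% and 47.6% of all genes, and the summed log2 ratio was 0.06 (interval 0.03 to 0.10) over all cells and 0.02 (interval -0.01 to 0.05) when matched. The highest were Txnip, a brake on glucose uptake, at 0.16 (interval -0.03 to 0.35) and Trp53, which encodes the stress factor p53, at 0.15 (interval 0.00 to 0.30). The lowest were Gprc5c, a receptor of dormant HSCs, at -0.03 (interval -0.28 to 0.22) and Rb1, the restraint on E2F factors, at -0.03 (interval -0.17 to 0.11). The 24 immediate early genes, which answer to stimulation and cell handling, had 0 past the fold, with medians of 0.05 over all cells and -0.07 when matched. Ier3 was highest at 0.30 and Junb lowest at -0.11.

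**Figure D4:**
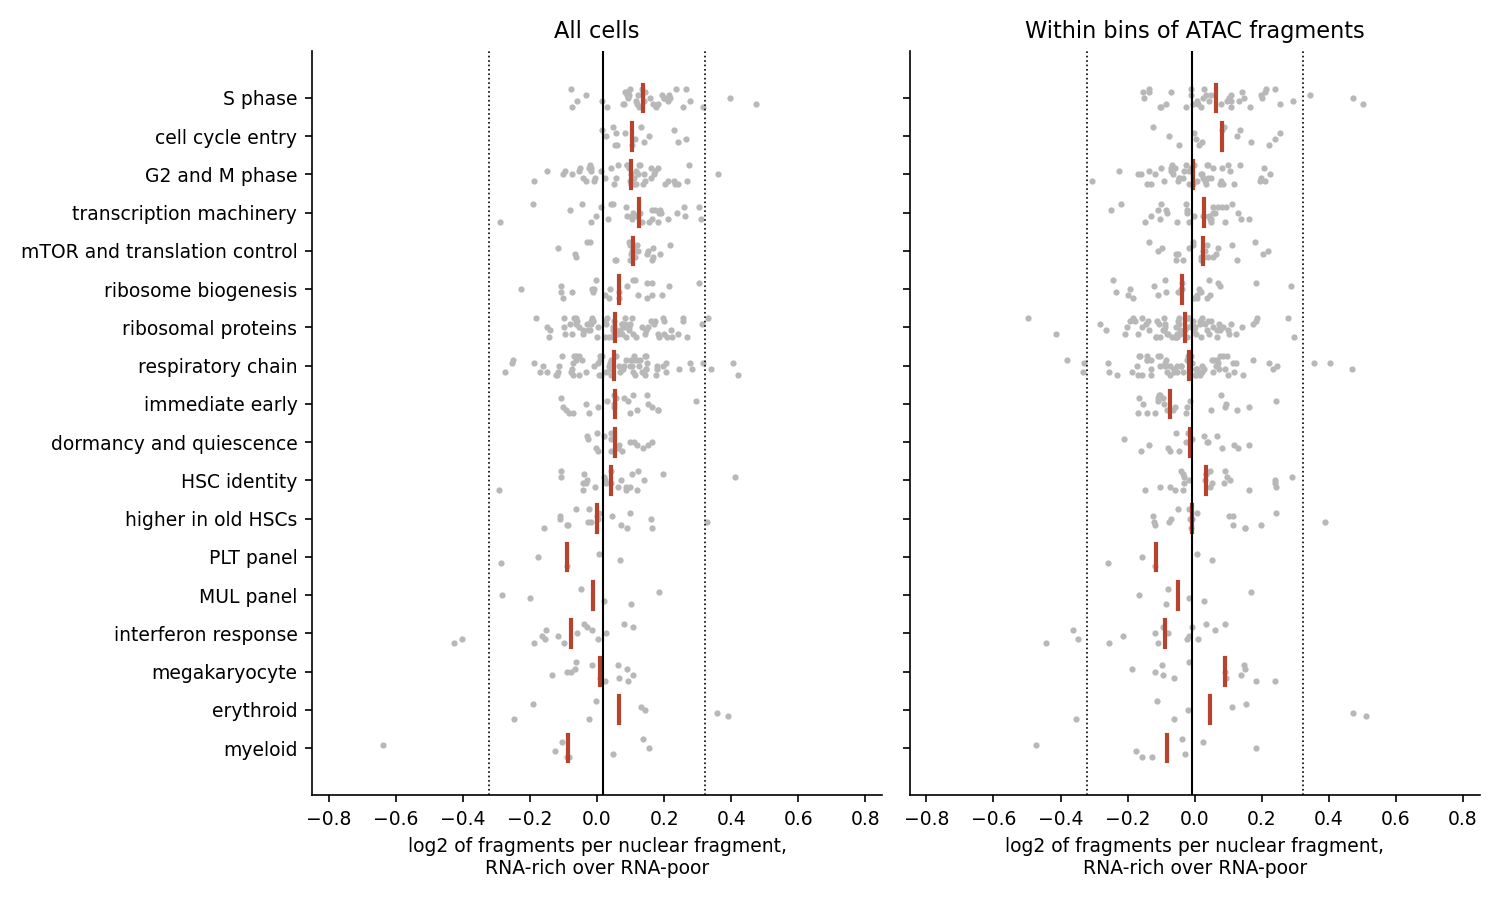
Log2 of RNA-rich over RNA-poor levels (x axis) for each gene with at least 200 fragments (points) of the gene lists (y axis), with the median of each list, over all cells (left) and matched on fragments (right). The S phase median lies at 0.14 and 0.06 and the median of dormancy and quiescence at 0.05 and -0.01.

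Genes of RNA and protein production had medians above that of all genes over all cells and near 0 when matched. At promoters, the medians of these lists ran from 0.085 (ribosomal proteins) to 0.169 (transcription machinery), against 0.066 over all promoters. When matched, they ran from -0.027 (ribosomal proteins) to 0.004 (transcription machinery), against -0.032 over all promoters. For 32 genes of the transcription machinery the medians were 0.12 over all cells and 0.03 when matched, with 0 past the fold, from the assembly factor Mnat1 at -0.29 to the pausing factor Nelfb at 0.31. For 25 genes of ribosome biogenesis they were 0.07 over all cells and -0.04 when matched, from Mybbp1a at -0.23 to Wdr12, which processes ribosomal RNA, at 0.30. For 25 genes of mTOR and translation control they were 0.11 over all cells and 0.02 when matched, with 0 past the fold. For 77 ribosomal protein genes they were 0.05 over all cells and -0.03 when matched. Over all cells 1 was higher, Rpsa at 0.33 (interval 0.15 to 0.51), and 0 lower, near the 1.40% and 1.92% of all genes. When matched, 0 were higher and 2 lower, against 2.32% and 1.49% of all genes. For 74 nuclear genes of the respiratory chain they were 0.05 over all cells and -0.02 when matched, with 3 higher (1.40% of all genes were) and 0 lower over all cells, and 3 higher and 3 lower when matched. The 3 over all cells were Cox6b2 (0.42), Cox7c (0.41, but -0.29 with at least 50 tags) and Atp5c1 (0.34).

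Of 8 measured erythroid genes, 2 were higher past the fold and 0 lower over all cells, and 2 and 1 when matched, against 1.40% and 1.92% of all genes over all cells and 2.32% and 1.49% when matched. Gata1, the master factor of erythroid and platelet cells, had 24.1, 26.2, 26.1 and 31.6 FPM from RNA-poor to RNA-rich (chrX:7959260-7980071, log2 ratio 0.39, interval 0.13 to 0.65). When matched, it had 21.7, 24.2, 29.8 and 30.9 FPM (log2 ratio 0.51, interval 0.25 to 0.77). At its annotated start there were only 12 RNA-poor and 5 RNA-rich fragments. Epor, the erythropoietin receptor, had 19.1, 20.3, 18.02 and 24.5 FPM (log2 ratio 0.36, interval 0.06 to 0.65, and 0.47 when matched), with the RNA-rich group apart from the other three. Matched on RNA UMIs, the log2 ratios were -0.21 for Gata1 and -0.09 for Epor, on the other side of 0, and with at least 50 tags Epor had -0.17. Rhag, a membrane channel of red cells, had -0.19, and the median over 8 genes was 0.06. For 13 measured megakaryocyte genes the median was 0.01 over all cells and 0.09 when matched, and 0 passed the fold.

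Csf3r, the receptor for G-CSF that drives granulocyte formation, was lower in RNA-rich cells. It had 17.1 FPM in RNA-poor cells, 14.9 and 16.2 FPM in the middle groups and 10.98 FPM in RNA-rich cells (log2 ratio -0.64, interval -1.03 to -0.26, from 191 and 83 fragments), and -0.47 (interval -0.82 to -0.13) when matched. The other 7 measured myeloid genes lay between -0.12 (Prtn3) and 0.16 (Csf1r). Among stem cell identity genes Hoxb4, a homeobox factor of self-renewal, had 19.4, 19.04, 22.9 and 25.8 FPM (log2 ratio 0.41, interval 0.13 to 0.70, and 0.29 when matched), in a region shared with Hoxb3, but -0.0027 with at least 50 tags. Procr, the gene of CD201, was lowest at -0.29 (interval -0.71 to 0.11), and the median over 25 genes was 0.04. Of the B cell, T cell, macrophage and endothelial lists, 6, 7, 5 and 10 genes had enough fragments and 0 were past the fold, near the background of 1.40% and 1.92%. Their summed log2 ratios lay between -0.02 and 0.02 over all cells and between -0.02 (T cell) and 0.08 (B cell, interval 0.00 to 0.16) when matched, with 0.07 for the macrophage list.

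Counted over the gene and 2 kb upstream, a few of the interferon-induced genes were lower in RNA-rich cells. Of 20 genes, 16 had at least 200 fragments, with medians of -0.08 over all cells and -0.09 when matched, and 4 lay above 0 in both comparisons, against 55.8% and 47.6% of all genes. Past the fold 2 were lower and 0 higher, against 1.92% and 1.40% of all genes. When matched, 3 were lower and 0 higher, against 1.49% and 2.32% of all genes. At promoters, 11 had enough fragments. Of these, 0 passed the fold over all cells (1.54% of all promoters were lower and 2.98% higher). When matched, 3 promoters were lower and 0 higher, against 2.56% and 1.52% of all promoters. Ifit1, which binds foreign RNA, had 14.8, 11.3, 11.6 and 10.98 FPM from RNA-poor to RNA-rich over a region shared with Ifit1bl2 (log2 ratio -0.43, interval -0.83 to -0.04), with the RNA-poor group above the other three. Mx1, a GTPase against viruses, had 18.04, 16.4, 13.02 and 13.6 FPM (log2 ratio -0.40, interval -0.76 to -0.06). When matched, Ifit1 and Mx1 had -0.44 and -0.35, and Irf9, a subunit of the interferon-activated factor, had -0.36 (interval -0.59 to -0.13). Its partner Stat2 lay above 0 at 0.08. The summed log2 ratio was -0.06 (interval -0.11 to 0.00) over all cells and -0.07 (interval -0.13 to -0.01) when matched. Tmem173, the gene of the DNA sensor adaptor STING, had 18.04, 13.8, 11.9 and 10.98 FPM at its promoter (log2 ratio -0.71, interval -1.10 to -0.34, and -0.79 when matched). It is no member of the list and was among the lowest promoters. Matched on RNA UMIs it had -0.30 (interval -0.70 to 0.07), and with at least 50 tags 0.59. Only 138 promoters reached 200 fragments with at least 50 tags, against 12087 over all cells, so that last value rests on fewer fragments.

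The 250 bases before the start of Ifit1 (chr19:34640639-34640888, plus strand, RefSeq, GRCm38.p6) are shown for their interferon-stimulated response elements (TTTC, any 2 bases, then TTTC again) on either strand, in capitals.
Ifit1: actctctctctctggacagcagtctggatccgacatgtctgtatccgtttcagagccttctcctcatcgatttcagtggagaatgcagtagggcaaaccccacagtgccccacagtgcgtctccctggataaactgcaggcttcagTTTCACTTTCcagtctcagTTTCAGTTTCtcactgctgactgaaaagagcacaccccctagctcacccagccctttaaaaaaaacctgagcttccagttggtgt
The element was in 2.66% of promoters with at least 200 fragments, in 2.61% of those higher in RNA-rich cells and in 4.48% of those lower (6 of 134).

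**Figure D5:**
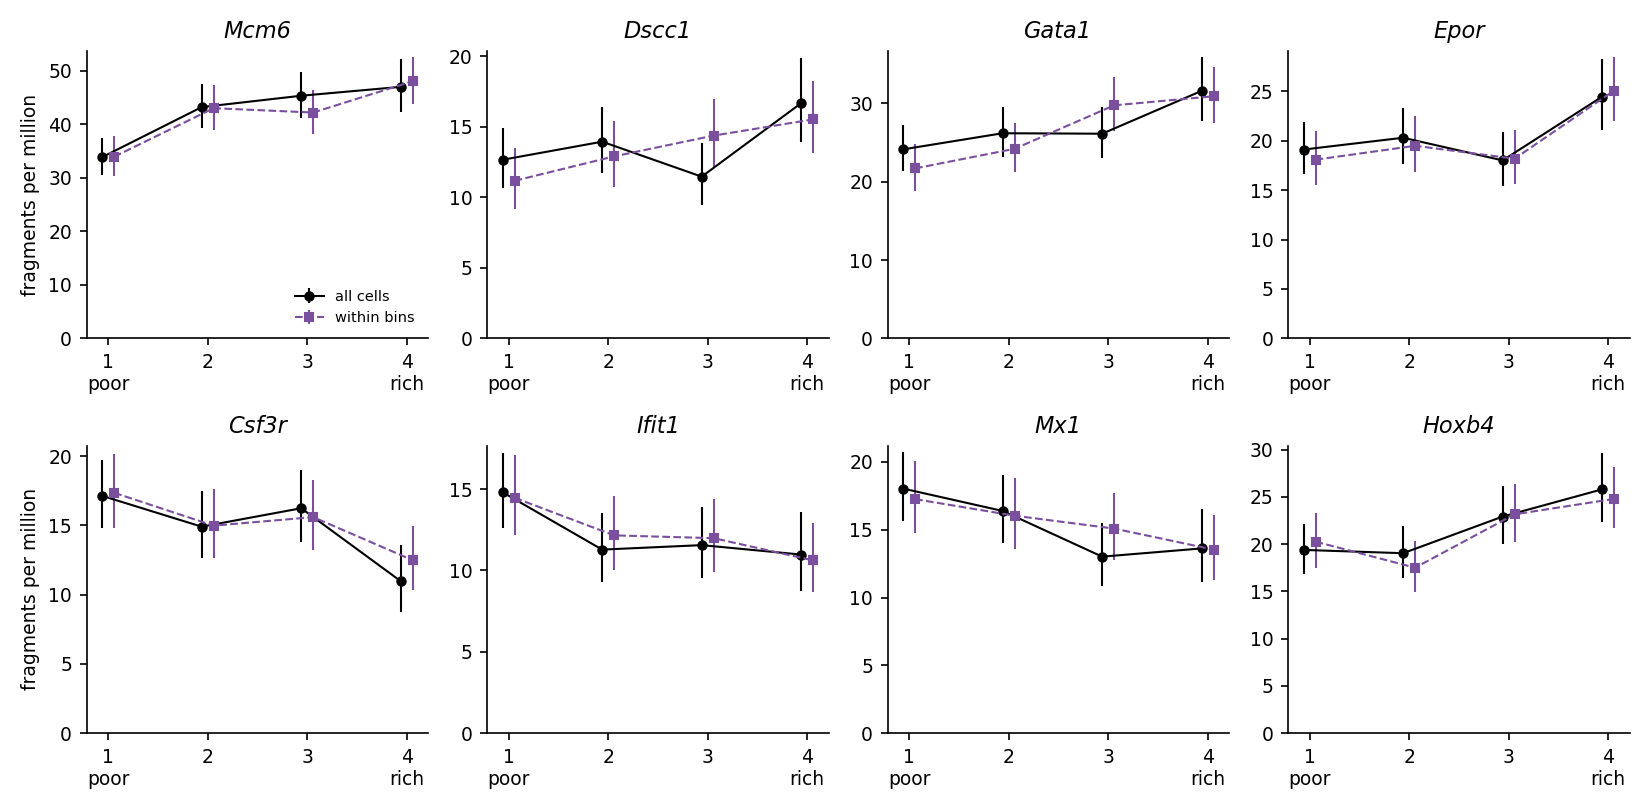
FPM over each gene and 2 kb upstream (y axis, from 0) in each of the 4 groups of RNA UMIs per fragment (x axis), over all cells and within 20 bins of fragments, with bars for the 95% Poisson interval. Mcm6 goes from 33.8 FPM in RNA-poor to 46.96 FPM in RNA-rich cells, and Csf3r from 17.1 to 10.98 FPM.

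Counted over the gene and 2 kb upstream, no gene of an antigen passed the fold among those with enough fragments. Of the 12, 10 had at least 200 fragments, and 0 passed the fold in either direction. Of all genes, 1.40% were higher and 1.92% lower, so that 0 of 10 is near the background. At promoters, 5 had enough fragments. Of these, 1 was higher and 0 lower over all cells (2.98% and 1.54% of all promoters), and 0 passed the fold when matched. Itgb3, which encodes CD61, had 97.9, 96.8, 98.9 and 93.8 FPM from RNA-poor to RNA-rich (log2 ratio -0.06, interval -0.20 to 0.08), while its tags were higher in RNA-rich cells. Mertk had -0.06 (interval -0.22 to 0.10). Some genes lay to the same side as their tags and others to the opposite side. To the same side were Cd274 at -0.10 (interval -0.34 to 0.14), Procr at -0.29 and Cd27 at 0.19, all with intervals that reach to both sides of 0. P2rx7, which encodes an ATP-gated channel, had 87.05, 83.2, 78.5 and 74.1 FPM (log2 ratio -0.23, interval -0.39 to -0.08, and -0.23 when matched), lowest in RNA-rich cells, while the ratio of P2X7R tags was 1.04 (interval 0.924 to 1.18). Cxcr3, the gene of CD183, was highest at 0.28 (interval -0.08 to 0.63), while the ratio of CD183 tags was 0.841 (interval 0.602 to 1.17). Tnfrsf18 and Vcam1, the genes of CD357 and CD106, had 166 and 99 fragments and were not counted.

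In the PLT and MUL panels, no gene with enough fragments passed the fold, and the summed log2 ratios were -0.08 (interval -0.15 to -0.02) and -0.11 (interval -0.20 to -0.02), or -0.10 (interval -0.16 to -0.03) and -0.05 (interval -0.13 to 0.04) when matched. Of the 6 PLT genes, 5 had enough fragments, with a median of -0.09 and 0 past the fold. Vwf, the platelet adhesion protein, had 226, 215, 210.2 and 213 FPM (log2 ratio -0.09, interval -0.18 to 0.00). Gpr4, a proton-sensing receptor, was lowest at -0.29 (interval -0.56 to -0.03), and Inhba highest at 0.07, while Pdgfc had -0.18 and Neo1 0.00. At promoters, Pdgfc was lower past the fold (-0.63, interval -1.07 to -0.21, and -0.36 when matched). Of the 7 MUL genes, 6 had enough, with a median of -0.01 and 0 past the fold. They ran from Sec16b at -0.28 (interval -0.49 to -0.09) and Flt3, a cytokine receptor of multipotent progenitors, at -0.20 (interval -0.37 to -0.03) to Cd27 at 0.19. Of the longer clone signatures of the study, the PLT list had 3 of 58 genes higher and 0 lower past the fold (median 0.02), and the MUL list 0 of 54 higher and 1 lower (median -0.03), against 1.40% higher and 1.92% lower of all genes. When matched, these were 3 and 1 of 59 and 0 and 1 of 54. At promoters, the PLT list had 2 of 36 higher and 1 lower, and 0 and 0 when matched. The MUL list had 0 of 33 promoters higher and 3 lower, and 1 and 3 when matched. Of all promoters, 2.98% were higher and 1.54% lower, and 1.52% and 2.56% when matched. Genes known to be higher in old HSCs had a median of 0.00 over 19, with the metallothionein Mt1 past the fold at 0.33 (interval -0.03 to 0.68), but at -0.14 with at least 50 tags.

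The genes at both ends were ranked by the bounds of their intervals, which cover counting error only. The 10 with the highest lower bounds among genes with at least 400 fragments were Tacr1, Hccs, Mcm6, Zdhhc12, Arl4aos, Dgcr8, Slc35b1, Sc5d, Elp5 and Mdh2, with log2 ratios from 0.35 to 0.54. Dgcr8, which starts the maturation of microRNAs, had 52.9, 56.5, 64.04 and 68.8 FPM (log2 ratio 0.38, interval 0.20 to 0.55, and 0.34 when matched). Hccs, which puts haem on cytochrome c, had 29.5, 31.6, 33.4 and 41.4 FPM (log2 ratio 0.49, and 0.37 when matched), in a region shared with Arhgap6 and Gm15246. Mdh2, a mitochondrial malate dehydrogenase, had 62.5, 71.4, 76.6 and 79.9 FPM (log2 ratio 0.35, and 0.20 when matched). Tacr1, a neuropeptide receptor, had 24.6, 23.4, 29.1 and 35.7 FPM (log2 ratio 0.54, and 0.67 when matched), but -0.22 when matched on RNA UMIs.

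The 10 genes with the lowest upper bounds, with log2 ratios from -0.56 to -0.41, included Gm4951, Gm11755, 1700017D01Rik, Gcnt4, Ifitm10, Fam131c, Slc25a22, Fam81a and Ephb1. Dgcr8 shares its region with Gm49776 and Trmt2a, and Mdh2 with Styxl1. When matched on fragments, which keeps many of the same cells, 4 of the 10 highest and 5 of the 10 lowest stayed past the fold. 1700017D01Rik, lower over its gene, had 0.56 at its promoter. At promoters, the highest 10 were Tmem67, Hccs, Mcm6, Pip4p2, Nrp2, Gm15246, Tmcc2, Gba2, 1700066B19Rik and Hoxa5, with log2 ratios from 0.53 to 0.72, of which Hccs and Gm15246 share a region. Tmem67 shares its region with Rbm12b2, and Gba2 with Rgp1. Pip4p2, a phosphoinositide phosphatase, had 14.4, 18.5, 20.2 and 22.1 FPM (log2 ratio 0.61, and 0.70 when matched). Gba2, a glucosylceramidase, had 0.53 and 0.10 when matched. The lowest 10 promoters were 1200007C13Rik, Tmem173, Plcb2, Slfn8, Bace2, Ulk3, Map4k4, Gcnt4, Pdgfc and Cyp24a1, with log2 ratios from -0.79 to -0.52. Cyp24a1 shares its region with Pfdn4. When matched, 6 of the 10 highest and 10 of the 10 lowest promoters stayed past the fold, as did 4 of the 5 highest and 3 of the 5 lowest distal windows. With at least 50 tags, Map4k4 had 0.61. Plcb2, a phospholipase of chemokine signalling, had 16.2, 14.4, 13.6 and 10.3 FPM (log2 ratio -0.64, interval -1.05 to -0.26, and -0.37 when matched), but 0.25 with at least 50 tags.

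Distal windows had few fragments each. The window with the highest lower bound lay at chr15:88296001-88297000 in 4930445N06Rik, with 113 RNA-poor and 132 RNA-rich fragments (log2 ratio 0.78, interval 0.41 to 1.16, and 0.46 when matched). The 200 bases of this window with the most fragment ends are printed on the plus strand (mm10, read from GRCm38.p6, chr15:88296090-88296289). Searched on either strand were the letters TGANTCA of AP-1 factors, AGATAA of GATA factors and TGTGGT of RUNX factors (also in the form TGCGGT), none of which occurs in this stretch.
Higher in RNA-rich cells: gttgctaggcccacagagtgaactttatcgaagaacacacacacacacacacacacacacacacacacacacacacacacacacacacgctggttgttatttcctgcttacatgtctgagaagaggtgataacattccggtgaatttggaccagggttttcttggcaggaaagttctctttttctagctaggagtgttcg
Over all 3039 windows, 12.6% held an AP-1 match in their 200 bases, as did 13.98% of those higher and 14.5% of those lower. GATA letters were in 10.7% of all, 11.3% of the higher and 10.5% of the lower windows, and RUNX letters in 31.6%, 30.1% and 30.3%. When matched, GATA letters were in 10.7% of all, 13.2% of the higher and 7.72% of the lower windows, RUNX letters in 31.8%, 33.3% and 36.01%, and AP-1 letters in 12.6%, 10.5% and 9.97%. The intervals of the higher and lower windows overlapped for each motif in both comparisons.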

How the data were processed

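DOGMA-seq libraries of LT-HSCs were taken as deposited. The authors aligned ATAC and RNA reads to mm10 with Cell Ranger ARC 2.0.2 and counted antibody tags with CITE-seq-Count (version not given in the sources used here). Per the file headers, values are raw counts: ATAC fragments with positions, reads and UMIs per barcode, and tags per antibody. The deposited antibody list names another antibody in its CD106 entry, so identifiers were used.

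Of 4369 called cells, 3724 were in the antibody table and 3629 had at least 10 tags, with 38554133 fragments and 114345 tags. No doublet was removed; an alternative leaves out cells with an excess of 1 kb windows with 3 overlapping fragments (Poisson, adjusted value below 0.01). Genes (GENCODE M21) were counted without strand, so overlapping genes share fragments. Ratios had 0.5 added to both counts. Intervals were exact (conditional binomial, Clopper-Pearson or Poisson). The ratio and its interval were tested on simulated counts that held counting error only, so they were not tested against any other spread.

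Named were the 10 genes (at least 400 fragments), 10 promoters and 5 distal windows with the highest lower and the lowest upper bounds (only the first window that was higher is described), antigen and panel genes, and the 2 highest and 2 lowest members of lists. Some named items are not reported here. Members and lists were chosen with earlier results of these data known. Alternatives were matching on fragments or UMIs, 3 or 10 groups, peak fragments in the ratio, leaving out the deepest 5% of cells or cells with excess overlaps, at least 50 tags, other tag scalings, promoter fragments as the scale and other minimum counts. Python 3.11.15, numpy 2.4.6, scipy 1.17.1, pandas 2.3.3, statsmodels 0.14.6 and matplotlib 3.10.9 were used.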

Additional observations from a re-analysis of the deposited data

Results flagged for a closer look

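Fragments on chromosome Y were present in these cells of female mice. Genes, promoters and windows on it were left out of the counts past the fold, but its fragments are part of the nuclear totals. There were 1386 of 7560262 nuclear fragments in RNA-rich and 2248 of 11143579 in RNA-poor cells, more than a count of 0 allows. The log2 ratio per nuclear fragment was -0.14 (interval -0.24 to -0.04). The origin of these fragments was not tested.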

How the results depend on the processing

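No paired analysis was possible because no test compared groups of samples. Of the alternative values of single genes, promoters, windows, antibodies and lists, 5923 stayed within the interval of the main value or, for counts, within 1.5 times of it, 843 moved outside and 20 reversed, which means that a value past the fold changed sign (smaller values that changed sign count as moved). The log2 ratio of CD61 (0.14) was -0.011 matched on UMIs and 0.030 with at least 50 tags. That of all antibody tags (0.011) was -0.018 matched on UMIs, 0.074 with 10 groups and -0.029 with peak fragments in the ratio. That of unmatched tags (0.32) was 0.50 matched on fragments, -0.032 on UMIs and 0.10 with at least 50 tags. The exonic share, RNA-rich minus RNA-poor (-3.21 percentage points), was -1.86 matched on fragments, -3.87 on UMIs, -2.87 with 3 groups, -4.23 with 10 groups, -2.56 with peak fragments, -2.69 without excess overlaps and -4.61 with at least 50 tags. The share at start sites (1.599) reversed to -0.82 matched on fragments, and was 3.95 on UMIs, 1.37 with 3 groups, 2.24 with 10 groups, 0.32 with peak fragments, 1.71 without the deepest 5%, 1.33 without excess overlaps and 1.22 with at least 50 tags. Genes higher past the fold (250) were 417 matched on fragments, 577 on UMIs, 678 with 10 groups, 119 with at least 50 tags, 108 scaled by promoter fragments, and 8 and 1463 at 1000 and 20 fragments. Genes lower (343) were 740 matched on UMIs, 90 with at least 50 tags, 635 scaled by promoter fragments, and 1 and 1902 at 1000 and 20 fragments. Promoters higher (360) and lower (186) were 186 and 313 matched on fragments, 1559 and 161 on UMIs, 224 and 212 with 3 groups, 849 and 96 with 10 groups, 229 and 315 with peak fragments, 22 and 2 with at least 50 tags, 150 and 365 scaled by promoter fragments, 20 and 0 at 1000 fragments, and 1513 and 1588 at 20. Distal windows higher (186) and lower (152) were 114 and 311 matched on fragments, 496 and 83 on UMIs, 240 and 268 with 3 groups, 33 and 5 with 10 groups, 112 and 275 with peak fragments, 172 and 100 without the deepest 5%, 97 and 247 scaled by promoter fragments, and 15990 and 20720 at 20 fragments, with 0 of either at 1000 fragments or at least 50 tags. The dormancy median (0.053) was -0.015 matched on fragments, -0.025 with peak fragments, -0.027 with at least 50 tags and -0.0027 scaled by promoter fragments. The S phase median (0.14) was 0.063 matched on fragments, 0.081 scaled by promoter fragments and 0.17 at promoters, and could not be given with at least 50 tags. The gate shares stayed within their intervals.

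With at least 50 tags, where 1841 genes had 200 fragments, the log2 ratios of these reversed: Mcm6 (-0.038), Slc35b1 (-0.0033), Hoxb4 (-0.0027), Mt1 (-0.14), Epor (-0.17), Shroom2 (-1.07), Cox7c (-0.29), Mcm6 promoter (-0.056), Tmem173 promoter (0.59), Plcb2 promoter (0.25) and Map4k4 promoter (0.61). Matched on UMIs, Tacr1 (-0.22), Dscc1 (-0.061), Gata1 (-0.21) and Epor (-0.089) reversed. At promoters, 1700017D01Rik (0.56), Gata1 (-0.62) and Tmem47 (-0.12) did. CD206 reversed with 10 groups (-0.51) and as a centred log ratio (-0.013). Values with at least 50 tags rest on fewer fragments than the main ones, and only 138 promoters reached 200 in that setting. The causes were not tested.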

Other observations

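Genes of a locus with ribosomal RNA-like sequence, Gm42418, Gm26917 and AY036118, were kept out of the counts. Their log2 ratios were 0.04, 0.02 and 0.05, and -0.01, -0.02 and 0.03 when matched on fragments.

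Across the 3629 cells, Spearman's rho of unmatched tags was 0.300 with RNA UMIs and 0.142 with ATAC fragments. That of the tags of the 12 antibodies was 0.0167 and 0.00768. These are descriptions over cells of 1 pool that share their libraries. The antibodies other than CD274 together averaged 9.80 tags per RNA-poor and 10.5 per RNA-rich cell (ratio 1.07, interval 1.04 to 1.10).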
